A study of Mus musculus with 6 samples.

Results

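The genes described here encode chemokines and interleukin family ligands, measured by RNA sequencing in mouse embryonic fibroblasts (MEFs) with and without the mitochondrial protease YME1L. Members were the loci of the count table with a symbol of the form Ccl, Cxcl, Cx3cl or Il followed by a number and at most 1 letter, together with Lif, Csf1, Csf2 and Csf3, so that receptors and antagonists were left out. This gave 80 loci with 74 symbols among 51499 loci in all. They were 30 CC chemokine loci, 13 CXC chemokine loci, 1 CX3C chemokine locus, 32 interleukin loci and 4 loci of Lif and the colony-stimulating factors.

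The 2 genotypes share an origin in SV40 large T-immortalized MEFs whose Yme1l alleles carry loxP sites. Both are clonal lines taken after Cre treatment and told apart by genotyping: wild-type (WT) cells have intact floxed alleles, and Yme1l-/- cells carry the Cre-deleted alleles. Each genotype was represented by 3 cultures, without any stimulus, and the question was how loss of the protease changes gene expression, including that of innate immune genes. Whether the cultures of a genotype came from 1 clone or several is not stated, so that clone and genotype cannot be told apart, and the p-values measure only the spread between these cultures. The 3 WT libraries held 33180867 to 34012520 counted fragments and the 3 Yme1l-/- libraries 34624075, 49351107 and 49157459. The targeted transcript, listed as Yme1l1, stood at 189 ± 5.16 CPM in WT and 39.1 ± 1.34 CPM in Yme1l-/- MEFs (counts per 1e6 fragments of the scaled library, mean ± SD, n = 3). Its log2 fold change, Yme1l-/- over WT, was -2.27 ± 0.05 (SE; edgeR adjusted p = 2.43e-11), so fragments from the locus were reduced but still counted in the Yme1l-/- libraries.

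Chemokines are small secreted proteins, a few of them held at the cell surface by a stalk, that direct the movement of leukocytes through G-protein-coupled receptors. Interleukins and the related factors Lif, Csf1, Csf2 and Csf3 act on cytokine receptors and control the survival, growth and activation of leukocytes and of stromal cells. Fibroblasts are a known source of Cxcl12, Csf1, Ccl2, Ccl7 and Il6, and many of these genes are induced through NF-κB, interferon-activated STAT and IRF factors, or AP-1.

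The promoters below are shown because they belong to members with contrasting results: Cxcl1, Cxcl10 and Cxcl12 were higher in Yme1l-/- MEFs, Cxcl14 was not detected there, and Il6 was not called. Each is the 250 bases before the transcription start from RefSeq (build GRCm38.p6), 5′ to 3′ on the strand of the gene. Capitals mark matches, on either strand, to the letters searched for NF-κB (GGG, any 2 bases, then TTTCC), the interferon-stimulated response element (ISRE, GAAA on both sides of any 2 bases), STAT (TTCNNNGAA) and AP-1 (TGANTCA).
Cxcl1, chr5:90890995-90891244, plus strand, with NF-κB letters starting 89 and 71 bases before the start: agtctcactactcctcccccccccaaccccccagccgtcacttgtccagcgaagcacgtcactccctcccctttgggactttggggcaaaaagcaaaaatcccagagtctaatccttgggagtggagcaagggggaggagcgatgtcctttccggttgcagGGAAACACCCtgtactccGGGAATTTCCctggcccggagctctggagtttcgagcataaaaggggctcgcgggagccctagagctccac
Cxcl10, chr5:92348890-92349139, minus strand, with ISRE letters 213 and AP-1 letters 74 bases before the start: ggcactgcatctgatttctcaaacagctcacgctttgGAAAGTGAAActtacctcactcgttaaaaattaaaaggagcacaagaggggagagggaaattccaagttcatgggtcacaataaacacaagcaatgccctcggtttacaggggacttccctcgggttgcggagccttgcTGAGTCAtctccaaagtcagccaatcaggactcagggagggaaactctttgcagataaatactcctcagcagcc
Cxcl12, chr6:117168285-117168534, plus strand, with no match: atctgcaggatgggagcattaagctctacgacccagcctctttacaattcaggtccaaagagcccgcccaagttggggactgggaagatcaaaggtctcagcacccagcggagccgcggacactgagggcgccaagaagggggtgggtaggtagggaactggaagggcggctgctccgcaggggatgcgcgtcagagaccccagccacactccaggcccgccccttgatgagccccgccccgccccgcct
Cxcl14, chr13:56296552-56296801, minus strand, with STAT letters 191 and ISRE letters 172 bases before the start: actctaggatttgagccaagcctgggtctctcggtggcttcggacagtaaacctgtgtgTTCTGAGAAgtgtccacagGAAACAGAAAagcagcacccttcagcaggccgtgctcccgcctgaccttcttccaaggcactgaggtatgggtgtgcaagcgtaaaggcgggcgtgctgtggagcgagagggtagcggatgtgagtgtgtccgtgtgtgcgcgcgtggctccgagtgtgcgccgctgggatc
Il6, chr5:30012864-30013113, plus strand, with AP-1 letters 249 and NF-κB letters 44 bases before the start: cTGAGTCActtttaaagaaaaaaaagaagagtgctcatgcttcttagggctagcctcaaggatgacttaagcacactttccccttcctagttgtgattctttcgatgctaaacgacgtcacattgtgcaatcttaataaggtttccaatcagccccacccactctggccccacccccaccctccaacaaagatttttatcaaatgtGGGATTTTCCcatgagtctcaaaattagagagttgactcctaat
RefSeq promoters were matched for 52 of the 74 symbols and for 16 of the 23 ligands that could be tested. Some genes have several starts, and windows were counted one by one. Among the 5 windows of 5 ligands higher in Yme1l-/- MEFs, 2 held the NF-κB letters, 1 the ISRE letters, none the STAT letters and 2 the AP-1 letters. Among the 11 windows of 6 ligands that were lower, the numbers were 1, 1, 1 and 3, and among the 7 windows of 5 ligands that were not called they were 2, 0, 0 and 2. Over 32851 windows of all genes, 1.41% held the NF-κB letters, 2.98% the ISRE letters, 7.02% the STAT letters and 6.75% the AP-1 letters. A match describes letters only. Other spellings were not searched, so a window without a match is not shown to lack a binding site. Ccl2, Ccl7, Ccl5, Cxcl16, Cxcl5, Il7 and Il34 had no promoter in the table.

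Of the 80 ligand loci, 23 had enough fragments to be tested, 26 had fragments below the filter and 31 had none in any library. Among the 23 tested, 9 were called higher and 8 lower in Yme1l-/- MEFs at an edgeR adjusted p under 0.05, and 6 were not called. The background was high, since 67.7% of the 13867 loci tested were called, 33.6% higher and 34.1% lower, so that 39.1% of ligands higher and 34.8% lower lie near it. At a change of at least 2-fold the shares were further apart: 7 ligands (30.4%) were called higher against 9.1% of all loci, and 5 (21.7%) lower against 8.63%. The 3 Yme1l-/- libraries were all above the 3 WT libraries for 9 ligands (39.1%, against 35.9% of all loci) and below them for 9 (39.1%, against 36%). The median log2 fold change of the tested ligands was 0.20, beside -0.0041 over all loci. Passing the filter in only 1 genotype was enough for a test, so these shares describe the tested loci and not all 80.

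The counts by family follow, beside 33.6% higher and 34.1% lower over all loci, and the difference between families was not tested. Of the 7 CC chemokine loci tested 3 were higher and 1 lower, of the 6 CXC chemokines 4 were higher and 2 lower, and the CX3C chemokine was higher. Of the 7 interleukins tested 1 was higher and 4 were lower, and of Lif and Csf1 the first was lower and the second was not called.

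**Figure D1:**
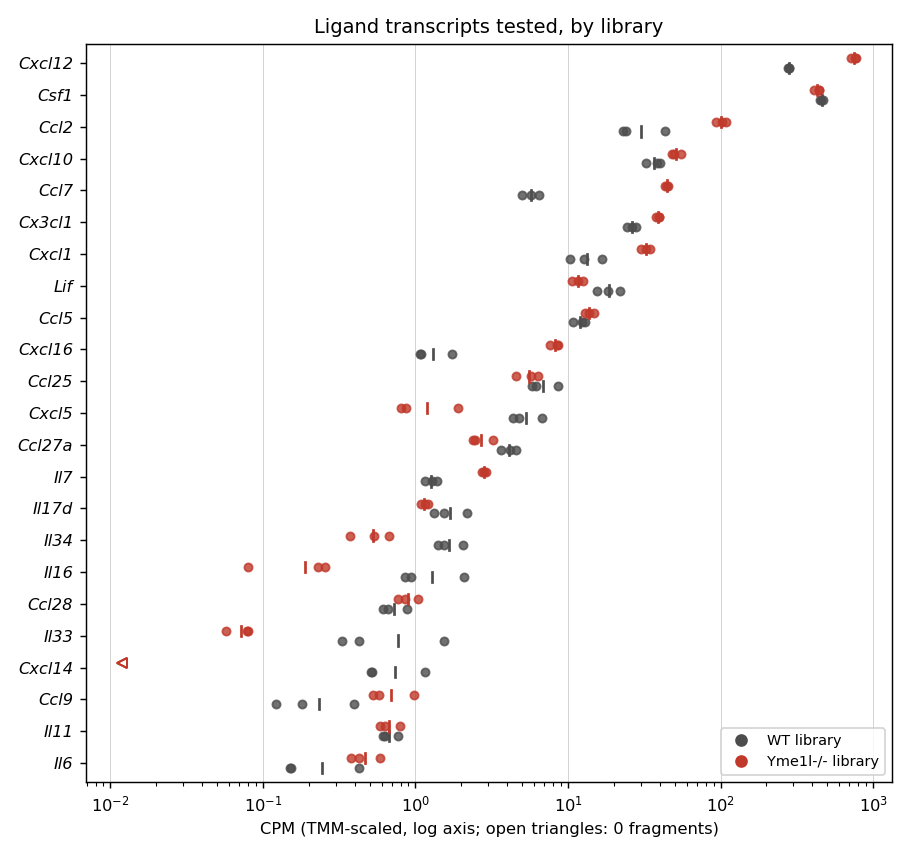
Level of each tested ligand transcript in each library, as TMM-scaled CPM on a log axis, with grey points for the 3 WT and red points for the 3 Yme1l-/- libraries and a short bar at each mean. Cxcl12 and Csf1 lie furthest to the right, Ccl7 and Cxcl16 show red points well to the right of the grey ones, and the open triangle marks Cxcl14, with 0 fragments in all 3 Yme1l-/- libraries.

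Compared per length, on the FPKM scale of the authors' table (fragments scaled to transcript length and to library size, 1 combined value per genotype and hence without error), a few ligands made up most of the signal. In WT MEFs Csf1 stood at 126.2 FPKM, Cxcl12 at 104.1, Ccl2 at 45.97, Cxcl10 at 39.67 and Ccl5 at 34.0. In Yme1l-/- MEFs the order of the first members was Cxcl12 at 267.4 FPKM, Ccl2 at 154.5, Csf1 at 123.9 and Ccl7 at 70.31. Summed over the 22 tested ligands with 1 position, the FPKM were 404 in WT and 778 in Yme1l-/- MEFs, of which Csf1 held 31.2% and then 15.9%, Cxcl12 25.7% and then 34.4%, Ccl2 11.4% and then 19.9%, and Ccl7 2.24% and then 9.04%.

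Ccl2 and Ccl7, neighbouring genes for chemokines that attract monocytes through the receptor CCR2, were among the ligands with the largest increases in Yme1l-/- MEFs. Ccl7 was 5.68, 6.48 and 4.96 CPM in the WT and 45.04, 44.7 and 43.6 CPM in the Yme1l-/- libraries. The libraries of a genotype lay close together and far from those of the other, with means of 5.71 ± 0.757 and 44.4 ± 0.785 CPM (SD, n = 3). The level was 7.78-fold higher and the log2 fold change 2.96 ± 0.08 (edgeR adjusted p = 1.93e-10). Ccl2 was 22.96, 43.0 and 23.9 CPM in WT and 109, 93.0 and 102 CPM in Yme1l-/- libraries. WT replicate 2 stood well above the other WT libraries but still below each Yme1l-/- library, and the level was 3.38-fold higher (log2 fold change 1.76 ± 0.29, edgeR adjusted p = 0.00467). Without WT replicate 2 the log2 fold change of Ccl2 was 2.11 (adjusted p = 3.76e-08). Ccl9, a mouse CC chemokine that acts on myeloid cells through CCR1, had 6, 13 and 4 fragments in WT and 34, 29 and 27 in Yme1l-/- libraries, with no overlap and a log2 fold change of 1.52 ± 0.43 (edgeR adjusted p = 0.00901), which was 2.13 without WT replicate 2.

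The other tested CC chemokines changed less. Ccl5, a chemokine for T cells and monocytes and a known interferon target, was 12.9, 12.4 and 10.8 CPM in WT and 14.7, 13.8 and 12.9 CPM in Yme1l-/- libraries, so that the lowest Yme1l-/- library overlapped the highest WT library (log2 fold change 0.20 ± 0.09, edgeR adjusted p = 0.0734, not called). Ccl25, a ligand of CCR9 known from thymus and gut, had 6.19, 5.77 and 8.54 CPM in WT and 4.54, 5.69 and 6.38 CPM in Yme1l-/- libraries, which overlapped (log2 fold change -0.30 ± 0.17, adjusted p = 0.14). Ccl28, a mucosal chemokine, was not called either, with 22, 29 and 20 against 30, 39 and 53 fragments (0.31 ± 0.25, adjusted p = 0.298). Ccl27a, a skin chemokine that binds CCR10, was the CC member that fell, from 4.13 ± 0.474 to 2.69 ± 0.457 CPM, or 1.53-fold (log2 fold change -0.61 ± 0.16, edgeR adjusted p = 0.0048). Its WT libraries (4.59, 4.15 and 3.64 CPM) lay above all Yme1l-/- libraries (2.46, 2.40 and 3.22 CPM). The symbol Ccl27a also names other loci with 0 fragments, and near-identical copies of this gene can share reads, so its value is uncertain.

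Among CXC chemokines, Cxcl12, the ligand of CXCR4 that guides haematopoietic and other cells, had the highest FPKM of all members in Yme1l-/- MEFs. In CPM it was 279, 283 and 281 in WT and 766, 770 and 720 in Yme1l-/- libraries. Both groups were tight and separate, and the level was 2.68-fold higher (281 ± 1.95 and 752 ± 28.2 CPM, SD, n = 3, log2 fold change 1.42 ± 0.05, edgeR adjusted p = 6.12e-10). Cxcl16, a membrane-anchored ligand of CXCR6, was 1.09, 1.74 and 1.07 CPM in WT and 8.46, 7.68 and 8.66 CPM in Yme1l-/- libraries. Every Yme1l-/- library exceeded every WT library, and the fitted level was 6.34-fold higher (log2 fold change 2.66 ± 0.17, edgeR adjusted p = 1.4e-07). Cxcl10, a CXCR3 ligand known as an interferon-induced chemokine, rose only 1.38-fold, from 39.8, 38.2 and 32.4 CPM in WT to 54.7, 49.2 and 48.4 CPM in Yme1l-/- libraries, without overlap (log2 fold change 0.46 ± 0.08, edgeR adjusted p = 0.000286).

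Chemokines for neutrophils moved in opposite directions. Cxcl1, a CXCR2 ligand, was 12.8, 16.7 and 10.4 CPM in WT and 32.2, 30.05 and 34.7 CPM in Yme1l-/- libraries, a 2.43-fold higher level with no overlap (log2 fold change 1.28 ± 0.15, edgeR adjusted p = 0.000115). Cxcl5, another CXCR2 ligand, was 4.74, 6.72 and 4.35 CPM in WT and 0.800, 0.873 and 1.90 CPM in Yme1l-/- libraries. All WT libraries lay above all Yme1l-/- libraries here, and the level was 4.33-fold lower (log2 fold change -2.11 ± 0.33, edgeR adjusted p = 0.000437). Cxcl14, a chemokine of epithelia and fibroblasts, had 17, 38 and 17 fragments in WT and 0 in each Yme1l-/- library. Taking 3 counts in the Yme1l-/- library where these weigh most as the limit, it was at least 8.53-fold below the WT mean (edgeR adjusted p = 7.99e-05). WT replicate 2 raised that mean (1.16 CPM, beside 0.514 and 0.521 CPM in replicates 1 and 3), so the bound would be smaller without it. Cx3cl1, or fractalkine, a membrane-anchored chemokine that can also act as an adhesion molecule, was 24.3, 27.9 and 26.3 CPM in WT and 37.7, 39.3 and 39.5 CPM in Yme1l-/- libraries. It was 1.48-fold higher with separate groups (log2 fold change 0.57 ± 0.06, edgeR adjusted p = 8.06e-06).

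**Figure D2:**
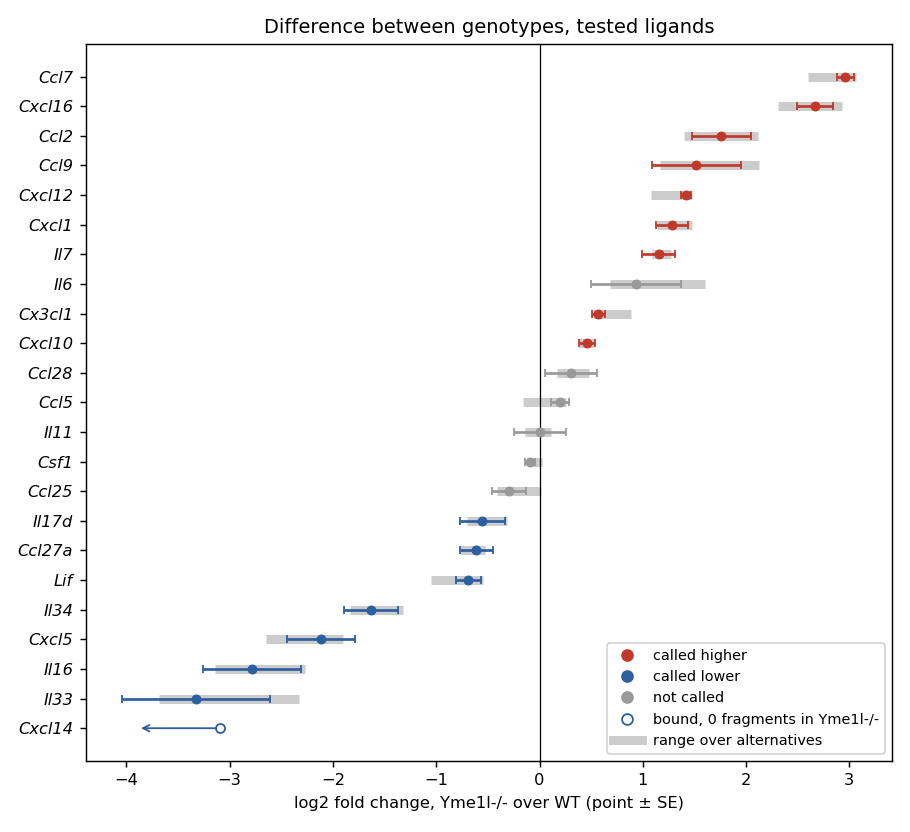
Log2 fold change of each tested ligand, Yme1l-/- over WT (point and bar, estimate ± SE), coloured by call, with a grey band for the range over the alternative analyses. Ccl7 and Cxcl16 lie furthest to the right, Il16 and Il33 have the lowest fitted values, and for Cxcl14 the open point with an arrow is the bound that 0 fragments allow in place of a fitted value.

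Of the 7 interleukins tested, Il7 was the only one called higher. Il7, a survival factor for lymphocytes that stromal cells make, was 1.15, 1.37 and 1.29 CPM in WT and 2.83, 2.92 and 2.73 CPM in Yme1l-/- libraries. The groups were separate, with a 2.22-fold higher level (log2 fold change 1.15 ± 0.16, edgeR adjusted p = 5e-05).

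The 4 interleukins called lower were Il33, Il16, Il34 and Il17d, each under 3 CPM in every library. Il34, which binds the same receptor as Csf1, was 1.54, 2.05 and 1.41 CPM in WT and 0.371, 0.535 and 0.667 CPM in Yme1l-/- libraries, 3.1-fold lower without overlap (log2 fold change -1.63 ± 0.26, edgeR adjusted p = 0.000181). Il16, whose product is cleaved to a secreted ligand of CD4, was 0.937, 2.08 and 0.858 CPM in WT and 0.229, 0.0793 and 0.255 CPM in Yme1l-/- libraries (log2 fold change -2.79 ± 0.47, edgeR adjusted p = 0.000346). WT replicate 2 was the highest library here as well, and without it the log2 fold change was -2.27 (adjusted p = 0.00118). Il33, a nuclear alarmin of stromal and barrier cells, had 11, 50 and 14 fragments in WT and 2, 4 and 4 in Yme1l-/- libraries. The groups did not overlap, but the fitted log2 fold change of -3.32 ± 0.71 (edgeR adjusted p = 0.00199) leaned on WT replicate 2 and was -2.33 without it (adjusted p = 0.00283). Il17d, a divergent member of the IL17 family, was 2.18, 1.31 and 1.53 CPM in WT and 1.20, 1.15 and 1.08 CPM in Yme1l-/- libraries. Its call was marginal (log2 fold change -0.55 ± 0.22, edgeR adjusted p = 0.0446) and was lost in 9 of 13 alternative analyses, among them leaving out WT replicate 1, which gave -0.32 (adjusted p = 0.222).

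Il6 and Il11, which both signal through the shared subunit Il6st (gp130), were not called. Il6 had 5, 14 and 5 fragments in WT and 15, 19 and 30 in Yme1l-/- libraries, with every Yme1l-/- library above every WT library in fragments but not once library size was taken into account (log2 fold change 0.93 ± 0.44, edgeR adjusted p = 0.0797). Without WT replicate 2 it was called, at 1.60 (adjusted p = 0.0118). Il11 had 21, 25 and 20 against 22, 40 and 30 fragments (log2 fold change 0.01 ± 0.25, adjusted p = 0.986), and the libraries overlapped.

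Lif and Csf1 were the members tested among Lif and the colony-stimulating factors. Lif, which keeps mouse embryonic stem cells undifferentiated and acts through Lifr and Il6st, was 18.3, 22.0 and 15.5 CPM in WT and 12.5, 10.6 and 11.6 CPM in Yme1l-/- libraries, 1.61-fold lower without overlap (log2 fold change -0.69 ± 0.12, edgeR adjusted p = 0.000401). Csf1, the main growth factor of macrophages, was 467, 452 and 458 CPM in WT and 439, 440 and 413 CPM in Yme1l-/- libraries. All Yme1l-/- libraries lay slightly below all WT libraries, but the difference was not called (log2 fold change -0.09 ± 0.05, edgeR adjusted p = 0.0934). Csf3 had 5, 5 and 4 against 9, 8 and 10 fragments and Csf2 at most 1, both below the filter.

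Members below the filter were present at traces. Cxcl11, like Cxcl10 an interferon-induced CXCR3 ligand, had 1, 2 and 0 fragments in WT and 10, 20 and 20 in Yme1l-/- libraries, and Cxcl9, the third of these ligands, had 0, 2 and 0 against 2, 3 and 14. Il18 had 1, 0 and 3 against 2, 13 and 18, and Ccl17 0, 0 and 1 against 8, 3 and 7. When 23035 loci were fitted without the filter, 4896 of all loci were called higher and 5155 lower. Of the 26 ligand loci below the filter, Cxcl11, Cxcl9, Il18 and Ccl17 were called higher in that fit. Called lower were 2, Cxcl3 (7, 7 and 5 against 0, 2 and 1 fragments) and Il24 (1, 2 and 3 against 0). Ccl20 reached 14 fragments, and none of Il17f, Il23a, Il5, Ccl6, Il15, Cxcl2, Cxcl15, Ccl4, Ccl8, Il19, Il21, Ccl22, Il2, Il12a, Il31, Il22 and Ccl27b had more than 7 in a library. The 31 loci without a fragment included Il1a, Il1b, Il10, Il12b, Il3, Il4, Il13, Il17a, Ccl3, Ccl11, Ccl12, Ccl24 and Cxcl13. At these depths a count of 0 allows up to 3 fragments in a library, counting error only, so these transcripts were not detectable rather than shown to be absent.

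Several members lie side by side in the genome (coordinates of GENCODE M21, build GRCm38), and neighbours did not move together throughout. On chromosome 11, Ccl2 (82035571 to 82037453, plus strand) and Ccl7 (82045712 to 82047525, plus strand) are 8.26 kb apart and both rose, while Ccl11 begins 10.3 kb after Ccl7 and had no fragment, nor had Ccl12 or Ccl1, and Ccl8 had at most 2. In the second CC cluster on chromosome 11, Ccl5 (83525778 to 83530518, minus strand) was not called and Ccl9, 42.4 kb away, was called higher, whereas Ccl6 had at most 5 fragments, Ccl4 at most 2 and Ccl3 none. On chromosome 5, Cxcl5 (90759360 to 90761624, plus strand) fell and Cxcl1 (90891241 to 90893115, plus strand) rose, with the members Cxcl3 and Cxcl15 between them at 7 fragments or fewer. The platelet chemokine genes Ppbp and Pf4, which the naming rule leaves out, also lie between them, Ppbp with 38, 38 and 29 against 43, 64 and 69 fragments (not called) and Pf4 with at most 1. Also on chromosome 5, Cxcl10 (92346638 to 92348889, minus strand) lies between the trace transcripts Cxcl9 and Cxcl11.

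**Figure D3:**
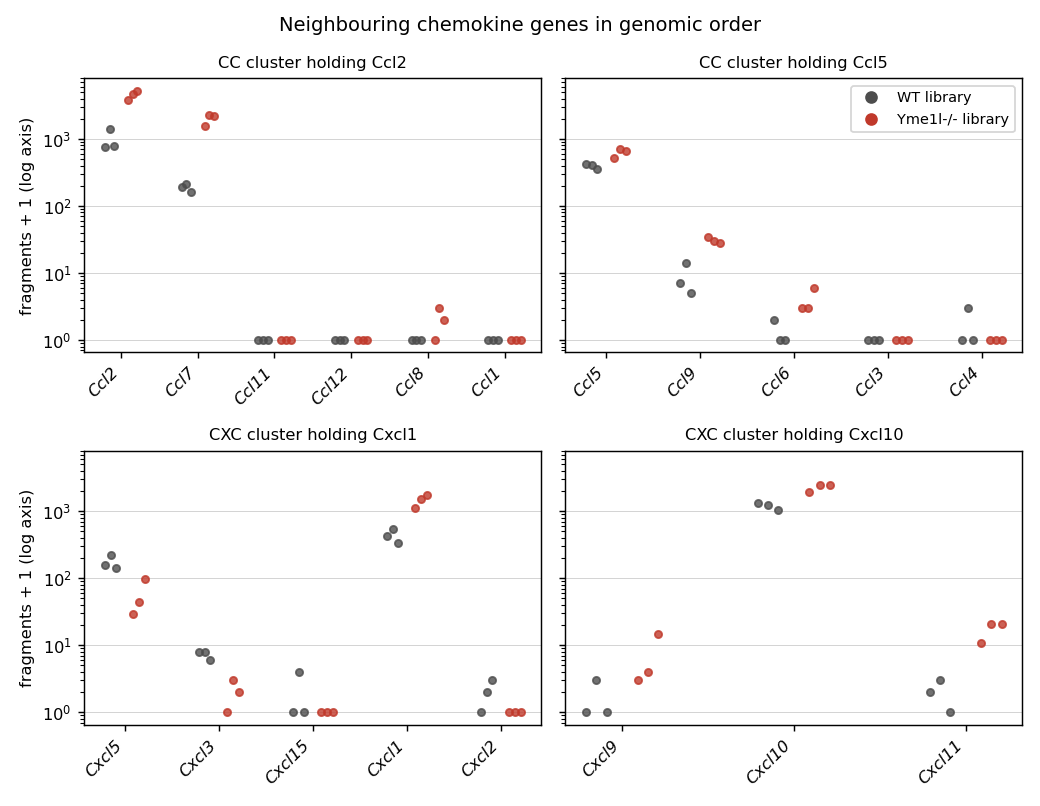
Fragments plus 1 (log axis) of member chemokine genes in genomic order in 4 clusters, with 3 grey points for WT and 3 red points for Yme1l-/- libraries per gene. Ccl2 and Ccl7 are higher in red while Ccl11, Ccl12 and Ccl1 sit at 1 (0 fragments), and Cxcl5 and Cxcl1, in 1 cluster, differ in opposite directions.

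For some members the position range given by the authors was longer than the gene model. It was 5.49 times the model for Ccl2, 36.77 times for Cxcl10, 2.04 times for Cxcl16, 2.14 times for Ccl25 and 2.74 times for Il7. Separately counted loci can share 1 range, as Cxcl10 and Cxcl11 do (1915 and 10 fragments in Yme1l-/- replicate 1). The ratios thus do not show whether reads from flanking sequence were counted with these members. Cxcl10 lies within Art3 on the opposite strand, and Art3 itself had at most 3 fragments in any library. The median log2 fold change of all tested loci also differed between chromosomes, being 0.36 on chromosome 11, 0.34 on chromosome 6 and -0.32 on chromosome 8. With these medians removed, Ccl7 stood at 2.60, Ccl2 at 1.40, Cxcl12 at 1.08, Cx3cl1 at 0.88 and Lif at -1.05, all still called, while Ccl5 on chromosome 11 turned to -0.16 (not called in either analysis).

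WT replicate 2 stood apart from the other WT cultures for these genes. It was the highest WT library in 17 of the 23 tested ligands (73.9%), against 31.8% of all loci tested. Its CPM divided by the mean of WT replicates 1 and 3 had a median of 1.3 over the ligands and 0.997 over all loci, and exceeded 1.5 in 7 ligands (30.4%, against 4.04% of all loci): Il33 (4.01), Il6 (2.81), Ccl9 (2.61), Il16 (2.32), Cxcl14 (2.24), Ccl2 (1.83) and Cxcl16 (1.61). Cxcl12 and Csf1, the tested members with the most fragments, were alike in all 3 WT cultures. Without WT replicate 2, 10 ligands were called higher and 8 lower, beside 4414 and 4468 of 13867 loci. Genes outside the set that were high in the same culture included the collagen gene Col3a1 (86.3, 301 and 91.1 CPM in WT replicates 1 to 3) and Dcn (1.57, 7.85 and 1.56 CPM), and their part in the result was not tested.

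**Figure D4:**
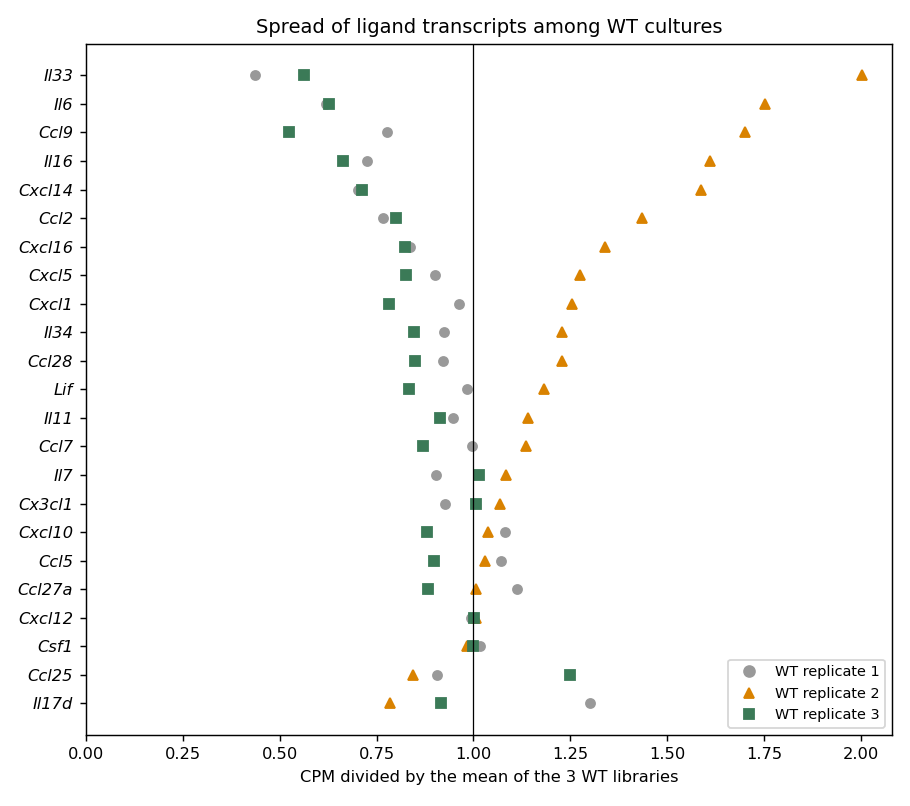
CPM of each tested ligand in the 3 WT libraries, divided by the mean of the 3 (horizontal axis, no unit), with a circle, triangle and square for replicates 1, 2 and 3. The triangles of replicate 2 lie furthest to the right for 17 of 23 ligands and reach their highest ratios for Il33, Il6 and Ccl9, while Cxcl12 and Csf1 show almost no spread.

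Receptors were examined with lists of 23 chemokine receptor loci and 49 cytokine receptor loci. Chemokine receptors had few or no fragments in either genotype: 10 loci had no fragment, 12 were below the filter with at most 7 fragments, and only Ackr3 could be tested. Ackr3, an atypical receptor that binds and removes Cxcl12, had 211, 260 and 149 fragments in WT and 13, 8 and 12 in Yme1l-/- libraries. It thus fell 25.4-fold, from 6.29 ± 1.69 to 0.255 ± 0.108 CPM (log2 fold change -4.67 ± 0.29, edgeR adjusted p = 1.46e-07), while its ligand Cxcl12 rose. Cxcr4, the signalling receptor of Cxcl12, had at most 2 fragments, Ccr2, the receptor of Ccl2 and Ccl7, at most 1, Cxcr2 at most 5, Cxcr6 at most 2, and Cxcr3 and Cx3cr1 none.

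Cytokine receptor subunits were better represented. Of 26 tested, 13 were called higher and 6 lower (50% and 23.1%, against 33.6% and 34.1% of all loci), among them 2 loci that merge a receptor with other genes. Those with the largest increases were Cntfr, a receptor for the Lif-related factor Cntf, with 0, 3 and 5 fragments in WT and 54, 68 and 74 in Yme1l-/- libraries (log2 fold change 4.10 ± 0.45, edgeR adjusted p = 9.74e-06, and 4.90 without WT replicate 3), Il17rc, from 9.50 ± 0.696 to 67.2 ± 5.41 CPM (2.82 ± 0.08), and Il17rd (1.21 ± 0.09). Over the alternative analyses Cntfr ranged from 3.53 to 4.90. Il17rc and Il17ra, which also rose (0.79 ± 0.06), form the receptor for Il17a and Il17f, of which Il17a had no fragment and Il17f at most 5. A locus that merges Il2rg with Gm20489 and Gm614 was called lower (-3.99 ± 0.42, edgeR adjusted p = 6.35e-06), whose fragments cannot be divided among them. Il1rl1, the receptor of Il33, had 26991, 29936 and 27205 fragments in WT and 3929, 5134 and 5015 in Yme1l-/- libraries. It fell from 854 ± 52.8 to 104 ± 7.22 CPM (log2 fold change -3.04 ± 0.07, edgeR adjusted p = 2.91e-11), the same direction as Il33, and its partner Il1rap rose by 0.44 ± 0.07.

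Subunits for Lif, Il6 and Il11 changed less. Il6st rose from 372 ± 1.88 to 545 ± 18.6 CPM (log2 fold change 0.55 ± 0.04, edgeR adjusted p = 7.94e-07) and Il11ra1 from 13.03 ± 0.564 to 18.2 ± 0.776 CPM (0.48 ± 0.07). Lifr was called higher at 0.35 ± 0.09 (edgeR adjusted p = 0.00387) but was called lower at -0.24 with chromosome medians removed (adjusted p = 0.0321), so its direction depends on that choice. Il6ra was not called (-0.18 ± 0.10, adjusted p = 0.145). Csf1r, the receptor of Csf1 and Il34, had 3, 2 and 5 fragments in WT and 11, 20 and 11 in Yme1l-/- libraries and was not tested, and Il7r had none.

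**Figure D5:**
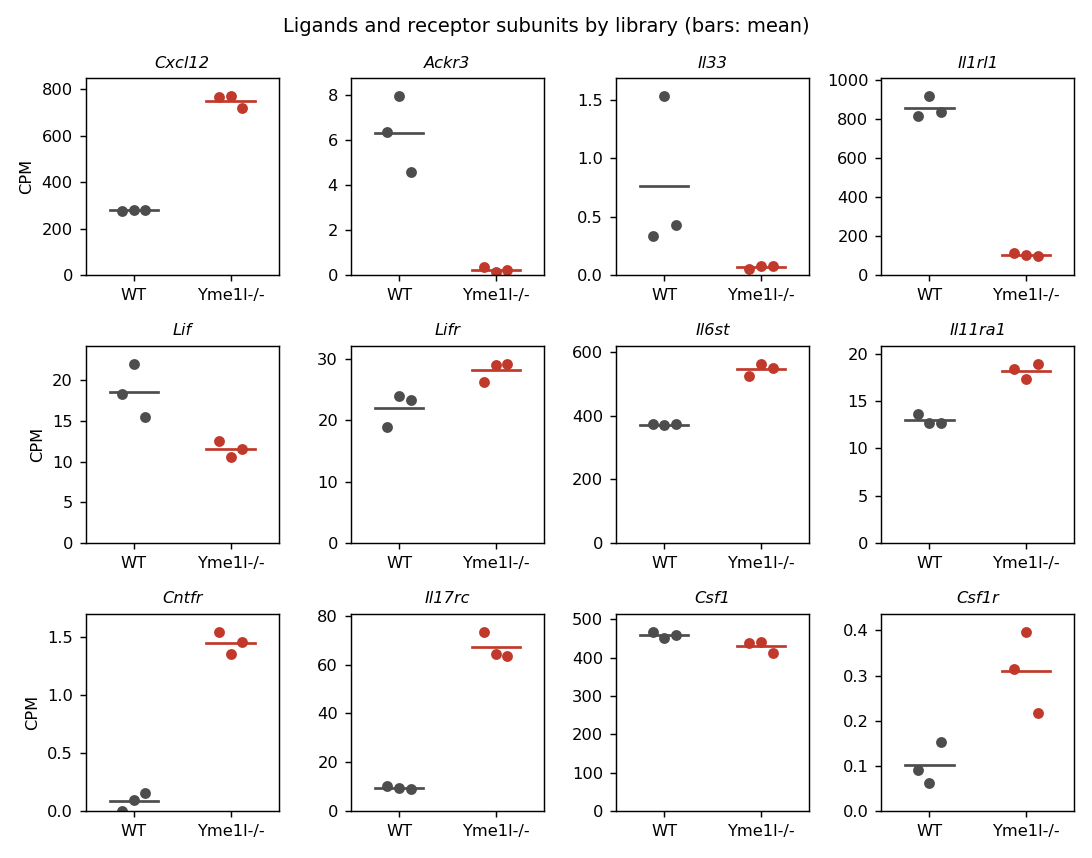
CPM (linear axes from 0, each panel with its own scale) of selected ligands and receptor subunits in the 3 WT (grey) and 3 Yme1l-/- (red) libraries, with bars at the means. Cxcl12 rises from 281 to 752 CPM while Ackr3 falls from 6.29 to 0.255 CPM, and Il33 and Il1rl1 fall together.

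Markers of other cell types were read beside these values, because in bulk cultures fewer cells of a type and less RNA per cell cannot be told apart. Leukocyte and macrophage markers (11 loci) summed to 2.08 to 2.18 CPM in WT and 4.52 to 5.24 CPM in Yme1l-/- libraries, mostly from Cd68 (61, 55 and 58 against 121, 177 and 199 fragments), a lysosomal gene that fibroblasts also express. Itgam (4, 4 and 2 against 9, 14 and 29), Lyz2 (0, 2 and 0 against 12, 8 and 11), Fcer1g (1, 3 and 3 against 4, 10 and 13) and Csf1r, given above, were below the filter, with every Yme1l-/- library above every WT library in fragments. Laptm5, Cd52 and Aif1 had at most 2 fragments. The defining markers Adgre1 and Tyrobp were at 0 in all libraries and Ptprc had at most 1 fragment. Markers of T, B and mast cells summed to 0.0572 to 0.153 CPM over all libraries, and endothelial markers to 0.888 to 1.44 CPM in WT and 1.67 to 2.0 CPM in Yme1l-/- libraries. Among epithelial markers Krt18 had 1048, 1086 and 1012 fragments in WT and 0, 1 and 3 in Yme1l-/- libraries and Epcam 50, 42 and 35 against 2, 5 and 5. The other 4 epithelial markers were below the filter: Krt8 (5, 9 and 15 against 14, 9 and 4 fragments) and Cdh1 (6, 4 and 12 against 7, 2 and 3) overlapped, Krt14 was lower in fragments in Yme1l-/- libraries (6, 8 and 6 against 0, 1 and 2) and Krt5 had 0 in WT against 1, 1 and 2. Of 8 fibroblast markers tested 6 were lower and 1, Col1a1, higher (34.1% and 33.6% over all loci), with summed levels of 10800 to 11400 CPM in WT and 6650 to 7130 CPM in Yme1l-/- libraries, and Thy1 had at most 6 fragments. Vim, Fn1, Col1a1 and Col1a2, genes that mark mesenchymal cells, had at least 37909 fragments in each of the 6 libraries. The part of these markers in the ligand results was not tested.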

How the data were processed

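Poly(A)-selected stranded libraries from 3 WT and 3 Yme1l-/- cultures were sequenced by the authors, mapped to GRCm38 (mm10) with HISAT2 2.0.4, assembled with StringTie 1.3.3 and compared with Cuffdiff 2.2.1. The deposited table holds raw counts of fragments per assembled locus. Whether counting used strand, and how reads with several positions were counted, is not given in the sources used here. A second deposited table gives FPKM, 1 combined value per genotype, used for levels between genes only. Its fold changes, p-values and q-values were not used.

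The tool was edgeR 4.0.16 (R 4.3.3, limma 3.58.1 loaded): filterByExpr with a minimum count of 10, TMM factors, and the robust two-sided quasi-likelihood test without covariates, with Benjamini-Hochberg adjustment over all 13867 loci and a call at an adjusted p under 0.05. SE came from the fold change and the F statistic. CPM used TMM-scaled library sizes. The test was tested on simulated counts. Alternatives included DESeq2 1.42.0, other factors and filters, and each library left out.

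All ligands passing the filter were described, in every library from a mean of 1 CPM in a genotype. Of receptor and regulator lists, written from general knowledge, the 3 highest and 3 lowest calls and receptors of described ligands were named, except a few items that are not reported here, and further receptors, markers and neighbours of interest were chosen after their values were seen. Members and lists were chosen with earlier results of these data known. Depth limits low loci, and bounds cover counting error only. Correlations of same-numbered deviations were 0.2, -0.16 and 0.048, and 3 cultures per genotype are too few to decide whether replicate numbers pair the samples.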

Additional observations from a re-analysis of the deposited data

How the results depend on the processing

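Over the ligands' own log2 fold changes, 279 values from the alternatives stayed on their side of the threshold, 9 lost a call, all for Il17d (-0.61 to -0.32), and 5 gained one. No called ligand changed sign, but 9 values of uncalled ligands did, 6 of them for Il11 (down to -0.14) and, with chromosome medians removed, those of Ccl5 (-0.16), Csf1 (0.027) and Ccl25 (0.017). Gained calls were Ccl5 with upper-quartile factors (0.26) and under the replicate block (0.20), Csf1 (-0.093) and Ccl25 (-0.30) under the block, and Il6 without WT replicate 2. Ligands called higher numbered 8 to 13 and lower 5 to 10, beside 4176 to 5168 and 4204 to 5155 of all loci tested. With at least 10 counts in every library, 5 ligands were lower instead of 8, because 18 rather than 23 ligands and 12493 loci were then tested, and Ackr3 left the test, which gave 0 chemokine receptors lower. Without a filter 13 of 49 ligands were higher and 9 lower, beside 4896 and 5155 of 23035 loci.

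Over tested ligands the median log2 fold change (0.20) became 0.2584 with upper-quartile factors, 0.4565 without a filter over 49 loci, 0.254 with at least 10 counts in every library and 0.1263 with chromosome medians removed. Leaving out each library gave 0.1278 to 0.2513. The replicate block, a shared number only, gave 10 ligands higher and 10 lower, 9794 calls among all loci and a median of 0.2022, and Il1rn lost its call there (adjusted p = 0.0701). Lifr reversed to -0.2399 with chromosome medians removed, and the cause was not tested. Upper-quartile factors moved the median of all loci to 0.0552 and the share of higher calls from 49.6% to 55.1%. The number of libraries and the low counts of Il33, Cxcl14, Ccl9, Il6 and Il11 limit precision.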

Other observations

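Ligands and antagonists related to the set by function but not by name were listed separately. Of 18 tested, 7 were called higher and 7 lower (38.9% each, against 33.6% and 34.1% of all loci). These include 3 loci that merge a ligand with other genes and whose fragments cannot be divided, those of Cntf (with Zfp91, called lower), Tnfsf12 and Tnfsf13 (called higher) and Flt3l (with Rpl13a, not called). Il1rn, the antagonist of the interleukin 1 receptor, had 16, 65 and 11 fragments in WT and 220, 314 and 434 in Yme1l-/- libraries (log2 fold change 2.91 ± 0.59, edgeR adjusted p = 0.00731, and 4.09 without WT replicate 2), while Il1a and Il1b themselves had no fragment. Tslp, a stromal cytokine, had 16, 10 and 10 against 52, 60 and 72 fragments (1.88 ± 0.26, adjusted p = 6.28e-05), and Tnfsf11, the osteoclast factor RANKL, 4, 6 and 0 against 24, 18 and 17 (2.09 ± 0.63, adjusted p = 0.0124, and 2.80 without WT replicate 2). Over the alternative analyses Tnfsf11 ranged from 1.52 to 2.80 and Il1rn from 2.51 to 4.09. Lower were Hgf, the hepatocyte growth factor, with 139, 341 and 147 fragments in WT and 0, 2 and 1 in Yme1l-/- libraries, Areg, an EGF receptor ligand, with 272, 390 and 205 against 1, 5 and 3, and Tgfb1 (-0.94 ± 0.07). Il1rn and Hgf were also highest among WT libraries in replicate 2. Tnf had at most 3 fragments and Ifnb1 at most 1.

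Of 35 tested regulators that act on ligand transcription or mRNA decay, 18 were called higher and 13 lower (51.4% and 37.1%, against 33.6% and 34.1% of all loci), 2 of the 35 being merged loci. The largest increases were those of the interferon factors Irf7 (log2 fold change 2.57 ± 0.11, edgeR adjusted p = 6.28e-09) and Stat2 (1.76 ± 0.08, adjusted p = 7.48e-09) and of the NF-κB inhibitor Nfkbie (1.715 ± 0.07, adjusted p = 5.3e-09). The largest decreases were those of the AP-1 genes Jun (-1.37 ± 0.07, adjusted p = 4.27e-08) and Fosl1 (-1.36 ± 0.06, adjusted p = 9.18e-09) and of the immediate-early gene Egr1 (-1.08 ± 0.10, adjusted p = 2.66e-05).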
